A study of Capra hircus with 9 samples.

Results

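Insulin-like growth factor binding proteins (IGFBPs) and growth factor receptors of the rumen epithelium, the stratified lining of the largest forestomach, were followed in goats kept on 3 diets. The genes are IGFBP2, IGFBP3, IGFBP5, IGFBP6, IGF1R, INSR, FGFR2, FGFR3, MET and TGFB1, taken by symbol. Of these 10 symbols, 9 had a row in all 9 libraries, out of 18383 genes named in the files, and FGFR3 is not analysed here. All 9 passed the filter on low values (at least 1 FPKM in at least 3 libraries), and so did 11668 genes in all that were listed in every library. FPKM are fragments per length of transcript, scaled to the mapped fragments of a library, so levels can be compared between genes.

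The study sequenced rumen epithelium of goats aged 4 months, with 3 libraries from each of the HC diet, the MC diet and the LC diet. The series calls them 3 types of concentrate diet and does not spell the letters out, so the letters stand here as given. All libraries share tissue, age and method, with total RNA taken up in Trizol and converted with the Illumina TruSeq RNA kit. Whether each library is a different goat is not stated, and p-values then measure only the spread between these samples.

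IGF1 and IGF2 are secreted peptides that act through the tyrosine kinase receptor IGF1R, while insulin acts through its close relative INSR, and both relay through PI3K, AKT and mTOR. IGFBPs bind IGFs outside the cell, prolong their life and mostly keep them from the receptor until proteases release them. FGFR2 receives fibroblast growth factors from the stroma in its epithelial form, MET receives hepatocyte growth factor, and TGFB1 encodes a cytokine that halts keratinocyte division and drives fibroblasts. In ruminants IGFBP3 and IGFBP5 have been studied in the growth of rumen papillae on concentrate-rich feed.

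The files listed 15123 to 16696 genes per library, and the FPKM total was 755624 for LC1 and between 903006 and 1051183 elsewhere. With FPKM alone, sequencing depth is unknown. Keratinocyte markers were high by their sums. The 6 basal markers listed in all libraries summed to 3969 to 6465 FPKM. KRT5, the keratin of basal cells, stood at 2696 to 4803 FPKM. The 6 markers of differentiated keratinocytes listed in all libraries summed to 744 to 1695 FPKM. Of that list KRT10 stood at only 0.65 to 2.78 FPKM, KRT4 at 1.65 to 2.25 FPKM in MC, and KRT1 was not listed in every library. Smooth muscle markers set libraries apart. The 10 markers summed to 115 to 150 FPKM in HC and 1185 to 3666 FPKM in MC. In LC they summed to 2423 FPKM in LC1, 1300 FPKM in LC2 and 60.4 FPKM in LC3. ACTA2 differed from the sum, with its highest mean in HC: 28.7 FPKM, against 25.4 FPKM in MC and 17.3 FPKM in LC. At an adjusted p under 0.05 in the fit below, 0 of the 10 differed in HC minus LC and 0 in MC minus LC. In HC minus MC 2 were lower in HC. The 12 fibroblast markers summed to 160 to 313 FPKM in HC, 150 to 327 FPKM in MC and 248 to 627 FPKM in LC. In these bulk samples fewer cells of a type and less RNA per cell cannot be told apart. Where a call on one of the 9 genes changed with LC3 alone for LC or with either marker mean as a covariate, that value is also given. These fits were added after the values had been seen. The fit with LC3 alone assumes that LC varies as the other diets do. HC and MC do not overlap in their smooth muscle sums, so in HC minus MC that covariate cannot be fully told apart from diet. A call lost with it there does not show that muscle RNA made the change.

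Diets were compared with limma on log2(FPKM + 1) over all 11668 genes, and "passed" means a Benjamini-Hochberg adjusted p under 0.05 over all of them. Such log2 changes understate the change of genes with low FPKM. In the test over the 3 diets together 9 of 9 genes passed, against 45.2% of all genes (5274 of 11668). After median-of-ratios or quantile scaling 7 of 9 did, against 5230 and 5201 of all 11668 genes. In HC minus LC 7 of 9 passed and all 7 were lower in HC, against 25.2% of all genes (7.79% higher, 17.4% lower). After median-of-ratios or quantile scaling 5 of 9 passed in HC minus LC, 4 lower and 1 (IGFBP5) higher in HC. Of all 11668 genes 2823 and 2641 then passed, against 2939 without that scaling. In MC minus LC 7 of 9 passed, 6 lower and 1 higher in MC, against 33.4% of all genes (16.2% higher, 17.1% lower). In HC minus MC 4 of 9 passed, 2 higher and 2 lower in HC, against 25.0% of all genes (8.00% higher, 17.0% lower). Libraries of the 2 diets did not overlap for 7 of the 9 genes in HC minus LC (40.6% of all genes), 8 in MC minus LC (47.1%) and 4 in HC minus MC (46.4%). The comparisons share libraries and are not independent of each other. The median log2 change was -0.66 for these genes in HC minus LC, -0.97 in MC minus LC and -0.06 in HC minus MC, and that of all genes was -0.10, -0.0067 and -0.10. Changes that involve HC are thus to be read against a shift of -0.10 in all genes. With LC3 alone for LC, 3 of the 7 calls in HC minus LC and 5 calls in MC minus LC were made.

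**Figure D1:**
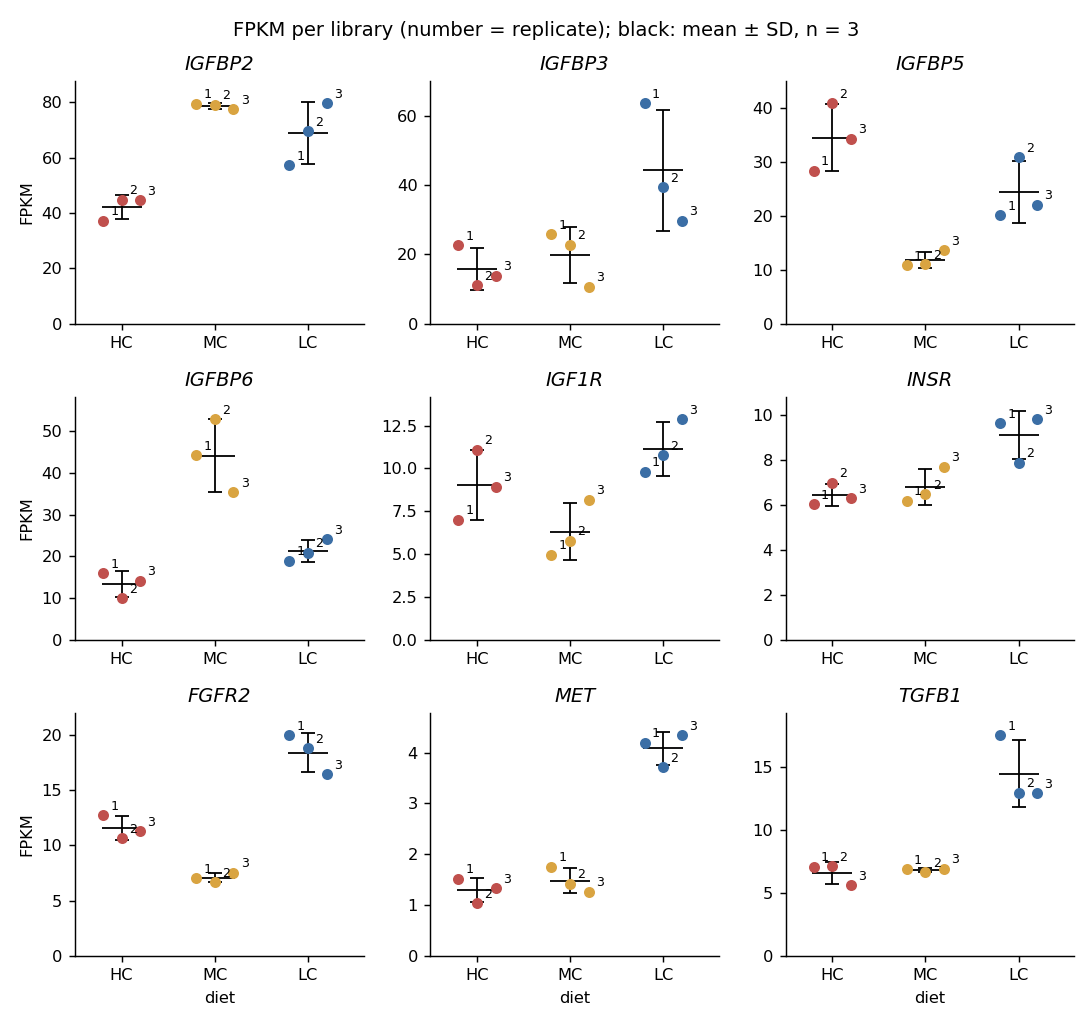
FPKM of 9 genes in each library (points, with the replicate number) by diet, HC, MC and LC from left to right, with the mean and SD of 3 libraries in black. FGFR2, MET and TGFB1 stand highest in LC, IGFBP6 in MC and IGFBP5 mostly in HC.

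**Figure D2:**
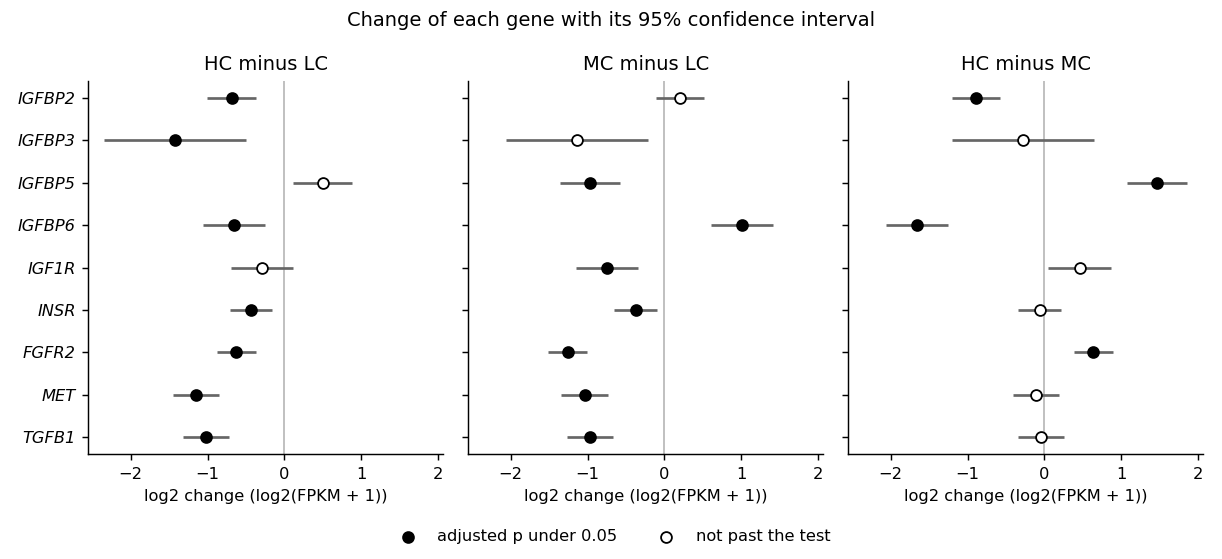
Log2 change of each gene on the log2(FPKM + 1) scale in the 3 comparisons, with its 95% confidence interval from the fit; filled points passed at an adjusted p under 0.05. MET and TGFB1 lie near -1 in both comparisons with LC and near 0 in HC minus MC.

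IGFBP2 and IGFBP5 are neighbours on chromosome 2, and both passed in HC minus MC, in opposite directions. By mean, IGFBP2 was lowest in HC and highest in MC, and IGFBP5 highest in HC and lowest in MC. The other ranks were not separated, as IGFBP2 did not pass in MC minus LC (adjusted p = 0.307). IGFBP5 did not pass in HC minus LC (adjusted p = 0.0624). IGFBP2 lies at 104023082 to 104031245 and IGFBP5 at 104044705 to 104061987, so that IGFBP5 starts 13460 bases after the end of IGFBP2. These positions come from the files, with the first base as 1, on a genome build not given in the sources used here. No locus of the 9 genes overlapped another gene's locus.

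IGFBP2, a binding protein with a preference for IGF2, had 37.2, 44.8 and 44.6 FPKM in HC libraries 1 to 3, 79.6, 79.2 and 77.6 FPKM in MC and 57.3, 69.7 and 79.8 FPKM in LC. All HC libraries stood below all others, while MC and LC overlapped. IGFBP2 fell to 42.2 ± 4.32 FPKM in HC, against 68.9 ± 11.3 FPKM in LC (SD, n = 3 each; log2 change -0.69 ± 0.14 SE, adjusted p = 0.0056). It was also lower in HC than in MC, with 42.2 ± 4.32 FPKM in HC and 78.8 ± 1.07 FPKM in MC (log2 change -0.89 ± 0.14, adjusted p = 0.00164). MC and LC were not separated (log2 change 0.20, 95% interval -0.11 to 0.52, adjusted p = 0.307). Both calls held in every one of 20 alternative fits. IGFBP2 was the highest of the 9 genes in 8 of 9 libraries and came after IGFBP3 in LC1.

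IGFBP5, which binds IGFs and also extracellular matrix, had 28.4, 41.0 and 34.3 FPKM in HC, 10.9, 11.0 and 13.6 FPKM in MC and 20.1, 31.0 and 22.1 FPKM in LC. The 3 MC libraries stood below all 6 others, and HC and LC overlapped through HC1 and LC2. IGFBP5 rose to 34.6 ± 6.30 FPKM in HC, against 11.8 ± 1.55 FPKM in MC (log2 change 1.46 ± 0.18, adjusted p = 3.14e-04). It fell in MC, with 11.8 ± 1.55 FPKM in MC and 24.4 ± 5.78 FPKM in LC (log2 change -0.97 ± 0.18, adjusted p = 0.0017). These 2 calls held in all 20 alternatives. HC and LC did not differ past the test (log2 change 0.49, 95% interval 0.11 to 0.88, adjusted p = 0.0624). A call between HC and LC was made in 5 of 20 alternatives. Among them were those without HC1 (adjusted p = 0.0358), without LC2 (0.0206) and after median-of-ratios scaling (log2 change 0.62, adjusted p = 0.01997). With the fibroblast covariate the log2 change in HC minus LC was 0.25 (adjusted p = 0.390). The ratio of IGFBP5 to IGFBP2 FPKM was 0.762, 0.915 and 0.769 in HC, 0.136, 0.139 and 0.175 in MC and 0.351, 0.444 and 0.277 in LC. This ratio did not overlap between any 2 diets and was highest in HC and lowest in MC.

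IGFBP6, which prefers IGF2 far more strongly than its relatives do, was highest in MC. It lies on chromosome 5 at 26137783 to 26141348. Its values were 15.9, 9.98 and 14.1 FPKM in HC, 44.3, 53.0 and 35.5 FPKM in MC and 19.0, 20.9 and 24.2 FPKM in LC, so that no 2 diets overlapped. IGFBP6 rose to 44.2 ± 8.75 FPKM in MC, against 21.4 ± 2.61 FPKM in LC (log2 change 1.005 ± 0.18, adjusted p = 0.00167; with LC3 alone for LC, adjusted p = 0.0562). It averaged 13.3 ± 3.04 FPKM in HC and 44.2 ± 8.75 FPKM in MC (log2 change -1.66 ± 0.18, adjusted p = 1.81e-04). Set against LC, it was also lower in HC (log2 change -0.66 ± 0.18, adjusted p = 0.0233), but this call was lost without HC2 (adjusted p = 0.0867), LC2 (0.0527) or LC3 (0.0673), after median-of-ratios (0.0568) or quantile scaling (0.0551), with the fibroblast covariate (0.117) and with LC3 alone (0.0739). MC1 to MC3 are also the diet group in which every library had much smooth muscle RNA. IGFBP6 stood at 24.2 FPKM in LC3 and 19.0 FPKM in LC1, whose smooth muscle sums were 60.4 and 2423 FPKM. In MC it had the order of the muscle sum, with 53.0 FPKM in MC2, 44.3 FPKM in MC1 and 35.5 FPKM in MC3 beside muscle sums of 3666, 2606 and 1185 FPKM. With the smooth muscle covariate the log2 change of IGFBP6 was 1.051 in MC minus LC (adjusted p = 0.00239) and -1.765 in HC minus MC (0.00374). In HC minus LC it was -0.71 (adjusted p = 0.0397). In HC minus MC this covariate cannot be fully told apart from diet, so a call kept there does not decide the matter. The part of smooth muscle RNA in the level of IGFBP6 was not tested.

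IGFBP3, the main IGF carrier of the blood and a product of stromal cells in many tissues, had 22.7, 11.0 and 13.9 FPKM in HC, 25.9, 22.9 and 10.6 FPKM in MC and 63.8, 39.5 and 29.8 FPKM in LC. It lies on chromosome 4 at 73652272 to 73660027. All 3 LC libraries stood above the 6 others, HC and MC overlapped, and within LC the values spread more than for any other of the 9 genes. IGFBP3 averaged 15.9 ± 6.08 FPKM in HC and 44.4 ± 17.5 FPKM in LC (log2 change -1.42 ± 0.40, adjusted p = 0.0348). In MC minus LC it did not pass, with 19.8 ± 8.08 FPKM in MC and 44.4 ± 17.5 FPKM in LC (log2 change -1.14, 95% interval -2.07 to -0.22, adjusted p = 0.0597), although it did without LC3 (adjusted p = 0.0413).

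The HC minus LC call of IGFBP3 was lost in 9 of 20 alternatives, among them those without HC2 (adjusted p = 0.117), HC3 (0.1097), LC1 (0.0869) or LC2 (0.0817) and that with LC3 alone (log2 change -0.93, adjusted p = 0.266). The other losses came with the smooth muscle covariate (log2 change -0.97, adjusted p = 0.106) and after median-of-ratios (0.0615), quantile (0.0687) or equal-total scaling (0.0622). In MC minus LC the smooth muscle covariate gave a call (log2 change -1.50, adjusted p = 0.0107). Within each diet IGFBP3 had the same order over libraries as the summed fibroblast markers. The marker sum was 313, 160 and 215 FPKM in HC1 to HC3, 327, 281 and 150 FPKM in MC1 to MC3 and 627, 382 and 248 FPKM in LC1 to LC3. Per 100 FPKM of marker sum, IGFBP3 had 7.26, 6.91 and 6.44 FPKM in HC, 7.93, 8.13 and 7.11 FPKM in MC and 10.2, 10.4 and 12.0 FPKM in LC. On that scale the spread within a diet was small and LC still stood above HC and MC without overlap. With the fibroblast marker mean as covariate, the log2 change was -0.52 ± 0.17 in HC minus LC (adjusted p = 0.0494) and -0.39 ± 0.16 in MC minus LC (adjusted p = 0.0731), which is smaller on the log2 scale than without it. IGFBP5 did not have this order: in HC and in MC it ran in the reverse order of the marker sum. In LC it was lowest in LC1, which had the largest sum, and highest in LC2. The 7 endothelium markers listed in all libraries had sums in the order of IGFBP3 in HC and LC, but not in MC.

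**Figure D3:**
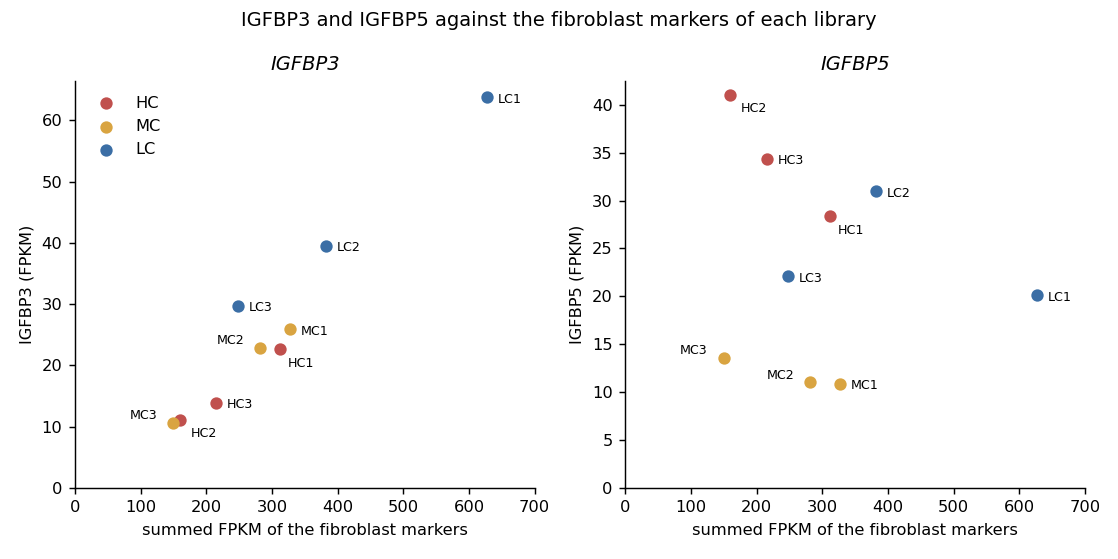
FPKM of IGFBP3 (left) and IGFBP5 (right) in each library against its summed FPKM of 12 fibroblast markers, coloured by diet. IGFBP3 climbs with the marker sum in every diet, with the LC libraries above the others, and IGFBP5 does not.

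IGFBP4 and IGFBP7, also listed in all libraries, passed in no comparison. IGFBP4, a carrier cleaved by PAPPA, had 19.7 to 32.0 FPKM in HC, 12.4 to 33.9 FPKM in MC and 22.6 to 59.9 FPKM in LC. IGFBP7, a matrix protein that binds IGFs weakly and shares its locus with POLR2B, so that its value is uncertain, had 20.0 to 35.3 FPKM in HC, 24.4 to 52.4 FPKM in MC and 29.2 to 82.2 FPKM in LC. Per 100 FPKM of fibroblast marker sum IGFBP7 also spread little, with 11.3 to 12.5 FPKM in HC and 11.8 to 13.1 FPKM in LC. In MC it had 15.8 to 18.6 FPKM on that scale. IGFBP4 spread more there, with 6.30 to 14.9 FPKM in HC. Summed over IGFBP2 to IGFBP7, the libraries held 150.0 to 164 FPKM in HC, 174 to 252 FPKM in MC and 208 to 302 FPKM in LC. All HC libraries stood below all others in this sum, and MC and LC overlapped. HC3 (164 FPKM) and MC3 (174 FPKM) were close. The sum was not rescaled for the shift of -0.10 in all genes in HC minus MC, so this separation may depend on scaling. The make-up differed as well. IGFBP5 took 17.8% to 27.3% of the sum in HC, 4.36% to 7.82% in MC and 6.65% to 12.5% in LC, whereas IGFBP6 took 6.65% to 9.99% in HC, 18.9% to 21.0% in MC and 6.29% to 11.6% in LC.

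**Figure D4:**
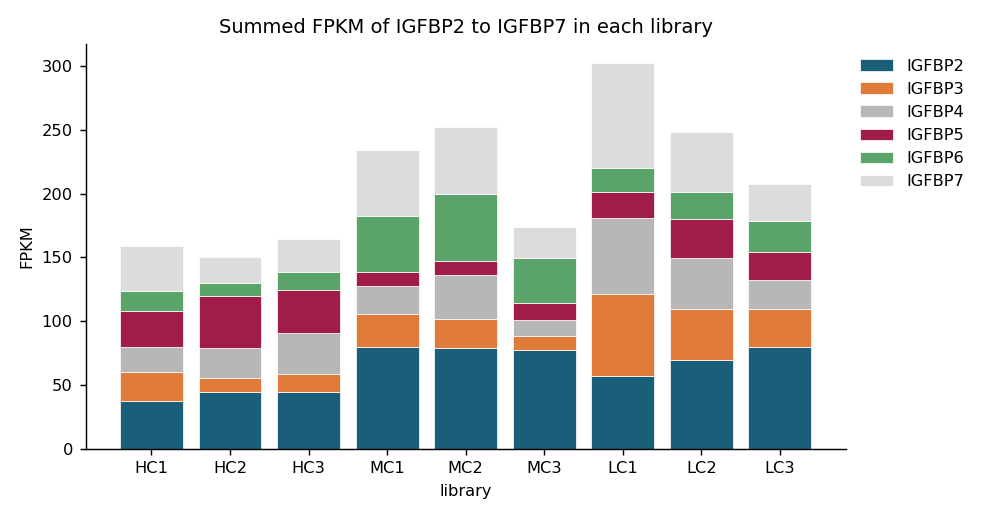
Summed FPKM of IGFBP2 to IGFBP7 in each library, stacked by gene. HC libraries reach 150.0 to 164 FPKM with a large IGFBP5 part, MC libraries carry the largest IGFBP6 part, and LC1 has the largest IGFBP3 part.

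The ligands themselves were low in this tissue. IGF1 was listed at 0.21 to 0.36 FPKM in HC, 0.21 to 0.38 FPKM in MC and 0.54 to 0.89 FPKM in LC, under the filter, and was not tested. IGF2 had 3.96 to 5.40 FPKM in HC, 2.97 to 5.74 FPKM in MC and 4.33 to 8.37 FPKM in LC and passed in no comparison.

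IGF1R, the receptor of both IGFs, lies on chromosome 21 at 5901461 to 6146644 and was lowest in MC. It had 7.02, 11.1 and 8.94 FPKM in HC, 4.97, 5.79 and 8.17 FPKM in MC and 9.80, 10.8 and 12.9 FPKM in LC. MC and LC did not overlap, and HC overlapped both. IGF1R fell to 6.31 ± 1.66 FPKM in MC, against 11.1 ± 1.58 FPKM in LC (log2 change -0.75 ± 0.19, adjusted p = 0.00943), in all 20 alternatives. HC minus LC did not pass (log2 change -0.29, 95% interval -0.70 to 0.12, adjusted p = 0.273), except with the fibroblast covariate (log2 change -0.68, adjusted p = 0.00985). HC minus MC did not pass either (log2 change 0.46, adjusted p = 0.0911), but did without HC1 (adjusted p = 0.0404), without MC3 (adjusted p = 0.0340) and after median-of-ratios (0.0389) or quantile scaling (0.0351), and with the fibroblast covariate (log2 change 0.39, adjusted p = 0.0262). Within each diet IGF1R was lowest in replicate 1, and replicate 1 had the largest fibroblast sum of its diet.

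INSR, the insulin receptor, on chromosome 7 at 12566808 to 12694180, was somewhat higher in LC. Its values were 6.02, 6.99 and 6.29 FPKM in HC, 6.19, 6.47 and 7.70 FPKM in MC and 9.64, 7.87 and 9.81 FPKM in LC. The LC libraries stood above the others, with LC2 and MC3 close together. INSR averaged 6.43 ± 0.503 FPKM in HC and 9.11 ± 1.08 FPKM in LC (log2 change -0.44 ± 0.13, adjusted p = 0.0250), and 6.79 ± 0.801 FPKM in MC (MC minus LC, log2 change -0.38 ± 0.13, adjusted p = 0.0382). Both calls sit near the threshold. The first was lost without HC1 (adjusted p = 0.066), HC3 (0.0828), LC1 (0.058) or LC3 (0.0786), with LC3 alone (0.0712) and after median-of-ratios (0.0751) or quantile scaling (0.129). The MC minus LC call was lost without HC3 (adjusted p = 0.0579), MC1 (0.133), MC2 (0.113), LC1 (0.0818) or LC3 (0.122). It was also lost with LC3 alone (adjusted p = 0.0784), with the smooth muscle covariate (0.112), with FPKM rescaled to equal totals (0.148) and with only MC and LC in the fit (0.0563). The ratio of IGF1R to INSR FPKM was 1.17, 1.59 and 1.42 in HC, 0.802, 0.895 and 1.06 in MC and 1.02, 1.37 and 1.31 in LC. In HC every library had more IGF1R than INSR FPKM, while 2 of the 3 MC libraries had less.

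FGFR2, on chromosome 26 at 39866131 to 39966713, separated all 3 diets. It had 12.7, 10.7 and 11.3 FPKM in HC, 7.04, 6.67 and 7.53 FPKM in MC and 19.97, 18.8 and 16.4 FPKM in LC. FGFR2 was thus highest in LC, intermediate in HC and lowest in MC, with no overlap. It fell to 7.08 ± 0.431 FPKM in MC, against 18.4 ± 1.81 FPKM in LC (log2 change -1.26 ± 0.12, adjusted p = 1.94e-05), in all 20 alternatives. It averaged 11.6 ± 1.06 FPKM in HC and 18.4 ± 1.81 FPKM in LC (log2 change -0.63 ± 0.12, adjusted p = 0.00288; with LC3 alone, 0.0894). It averaged 11.6 ± 1.06 FPKM in HC and 7.08 ± 0.431 FPKM in MC (log2 change 0.64 ± 0.12, adjusted p = 0.00326; with FPKM rescaled to the same total per library, 0.0567).

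FGFR1, the receptor form of stromal cells, did not have FGFR2's order. It averaged 1.11 ± 0.304 FPKM in HC, 2.41 ± 0.717 FPKM in MC and 4.55 ± 1.64 FPKM in LC, and was lower in HC than in LC (log2 change -1.37, adjusted p = 0.00108) and than in MC (log2 change -0.68, adjusted p = 0.0401). The ratio of FGFR2 to FGFR1 FPKM was 8.75, 10.98 and 12.6 in HC, 2.58, 2.29 and 4.74 in MC and 3.10, 5.05 and 4.71 in LC. HC stood above both other diets in this ratio, and MC and LC overlapped. The HC minus MC call of FGFR1 was lost without HC2, HC3, MC1 or MC2 (adjusted p = 0.118 to 0.144). It was also lost after median-of-ratios (0.0748), quantile (0.07996) or equal-total scaling (0.0576) and with the smooth muscle covariate (log2 change -0.22, adjusted p = 0.674).

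MET, on chromosome 4 at 49107161 to 49224324, was the lowest of the 9 genes in every library and was set apart by LC. It had 1.52, 1.04 and 1.33 FPKM in HC, 1.75, 1.42 and 1.26 FPKM in MC and 4.20, 3.71 and 4.34 FPKM in LC. Each LC library was above every HC and MC library, with 3.71 FPKM as the lowest LC value and 1.75 FPKM as the highest of the others. MET averaged 1.29 ± 0.244 FPKM in HC and 4.09 ± 0.329 FPKM in LC (log2 change -1.15 ± 0.14, adjusted p = 1.78e-04), and 1.48 ± 0.250 FPKM in MC (MC minus LC, log2 change -1.04 ± 0.14, adjusted p = 2.10e-04). Between HC and MC the log2 change was -0.11 (95% interval -0.42 to 0.19, adjusted p = 0.576). LC3, the LC library with little smooth muscle RNA, had 4.34 FPKM, and LC1, with the largest muscle sum of LC, had 4.20 FPKM. The part of smooth muscle RNA in the level of MET was not tested.

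TGFB1, on chromosome 18 at 49347884 to 49361720, followed the same split. It had 7.07, 7.09 and 5.60 FPKM in HC, 6.86, 6.64 and 6.89 FPKM in MC and 17.5, 12.9 and 12.9 FPKM in LC. HC and MC overlapped and LC stood apart, with LC1 above LC2 and LC3. TGFB1 averaged 6.80 ± 0.138 FPKM in MC and 14.4 ± 2.65 FPKM in LC (log2 change -0.97 ± 0.14, adjusted p = 3.34e-04), and HC averaged 6.59 ± 0.855 FPKM (HC minus LC, log2 change -1.02 ± 0.14, adjusted p = 4.12e-04). HC minus MC was -0.05 (95% interval -0.35 to 0.26, adjusted p = 0.832). The calls of MET and TGFB1 against LC were made in all 20 alternatives, those with LC3 alone included (adjusted p = 0.00565 to 0.0132). Leukocyte markers moved with this split, and leukocytes also make TGFB1. The 9 leukocyte markers listed in all libraries summed to 19.3 to 25.9 FPKM in HC, 21.4 to 23.6 FPKM in MC and 39.0 to 42.4 FPKM in LC, 6 of the 8 tested were lower in HC and in MC than in LC, and NKG7 was higher. The sum includes NKG7, which stood at 9.22 to 15.0 FPKM in HC, 7.98 to 9.22 FPKM in MC and 2.78 to 3.04 FPKM in LC. PTPRC stood at 0.34 to 0.55 FPKM in HC, 0.44 to 0.58 FPKM in MC and 1.86 to 2.54 FPKM in LC. The part of leukocytes in the result was not tested.

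Other genes of these pathways were taken from 5 lists, which like the genes above were chosen with earlier results of these data known. Over all genes 25.2% passed in HC minus LC, 33.4% in MC minus LC and 25.0% in HC minus MC. In that order the IGF and insulin list had 18.2%, 18.2% and 9.09%, and the PI3K and mTOR list 5.56%, 33.3% and 27.8%. The FGF list had 21.4%, 50% and 28.6%, the HGF list 25%, 33.3% and 16.7%, and the TGF-beta list 40%, 36% and 28%. No list was tested as a set. In the IGF and insulin list 11 of 27 genes could be tested. For HC minus LC, 0 of 11 were higher and 2 lower in HC (median log2 change -0.35), in MC minus LC 0 were higher and 2 lower in MC (median -0.25), and in HC minus MC 0 were higher and 1 lower in HC (median -0.0024). HTRA1, a secreted protease that cleaves IGFBP5 among other proteins, averaged 60.8 ± 6.45 FPKM in HC, 111 ± 0.968 FPKM in MC and 99.7 ± 5.39 FPKM in LC, and was lower in HC than in LC (log2 change -0.71 ± 0.13, adjusted p = 0.0023) and than in MC (log2 change -0.86 ± 0.13, adjusted p = 9.47e-04), in all 20 alternatives. Like IGFBP2, HTRA1 was lower in every HC library than in any MC or LC library. The adaptor GRB10, which dampens IGF1R and INSR signals, averaged 2.56 FPKM in HC, 1.97 FPKM in MC and 4.52 FPKM in LC. It passed in MC minus LC (log2 change -0.91, adjusted p = 0.00204), a call lost with LC3 alone (log2 change -0.69). In HC minus LC it passed as well (log2 change -0.62, adjusted p = 0.0218). That call was lost without HC1, HC3, LC1 or LC2 (0.058 to 0.0672) and after median-of-ratios (0.0513) or quantile scaling (0.101). It was also lost with the smooth muscle (0.128) or fibroblast covariate (0.189). IGF2R, which clears IGF2, was lower in MC (5.93 FPKM in MC, 8.81 FPKM in LC, adjusted p = 0.0487), a call lost without any one of HC3, MC1, MC2 and the 3 LC libraries (adjusted p = 0.0634 to 0.171).

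In the PI3K and mTOR list 18 of 21 genes were tested. Against LC, 0 were higher and 1 lower in HC (median -0.09), in MC minus LC 1 was higher and 5 lower in MC (median -0.15), and in HC minus MC 3 were higher and 2 lower in HC (median 0.10). The regulatory PI3K subunits PIK3R1 and PIK3R2 were lower in MC than in LC. PIK3R1 averaged 40.9 ± 2.98 FPKM in HC, 25.2 ± 4.10 FPKM in MC and 44.4 ± 6.20 FPKM in LC (MC minus LC, log2 change -0.80, adjusted p = 0.00188; HC minus MC, log2 change 0.69, adjusted p = 0.00713, and 0.198 with the smooth muscle covariate). PIK3R2 averaged 18.3 ± 4.86 FPKM in MC and 36.9 ± 6.73 FPKM in LC (log2 change -0.99, adjusted p = 0.00835). The mTOR brakes TSC1 and TSC2 fell to 3.80 and 9.24 FPKM in MC, against 6.62 and 14.7 FPKM in LC (adjusted p = 7.84e-04 and 0.0051; TSC2 with LC3 alone, 0.0611). Like IGF1R and FGFR2, these 4 genes were lowest in MC. 4 more calls did not hold when 1 library was left out. In HC minus MC they were TSC2 (log2 change 0.55; without HC2, HC3, MC1 or MC2, adjusted p = 0.0516 to 0.0634), RPS6KB1 (-0.50; without HC2, HC3, MC1 or MC3, 0.0643 to 0.0933) and RHEB (-0.44; without HC2, HC3 or any MC library, 0.0575 to 0.146). For HC minus LC it was TSC1 (-0.36, and without HC1, HC3 or any LC library, 0.0599 to 0.107). Median-of-ratios and quantile scaling also lost RPS6KB1 (adjusted p = 0.0538 and 0.0796) and RHEB (0.091 and 0.0543). They lost TSC1 too (log2 change -0.25 and -0.17, adjusted p = 0.114 and 0.268), and equal-total scaling lost TSC2 (0.0719).

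The FGF list had 14 tested genes of 26. Against LC, 2 were higher and 1 lower in HC (median -0.14), in MC minus LC 4 were higher and 3 lower in MC (median 0.05), and in HC minus MC 1 was higher and 3 lower in HC (median -0.11). DUSP6, a phosphatase that ERK induces and that switches ERK off, was lowest in LC, where FGFR2, FGFR1 and MET were highest. It averaged 15.1 ± 1.60 FPKM in HC, 10.9 ± 1.29 FPKM in MC and 5.23 ± 1.06 FPKM in LC (HC minus LC, log2 change 1.38 ± 0.15, adjusted p = 8.09e-05; MC minus LC, log2 change 0.95 ± 0.15, adjusted p = 6.37e-04). ETV4, a transcription factor downstream of FGF receptors, averaged 1.21 ± 0.213 FPKM in HC, 3.11 ± 0.680 FPKM in MC and 0.578 ± 0.162 FPKM in LC, and passed in MC minus LC (log2 change 1.37, adjusted p = 8.23e-05) and in HC minus MC (log2 change -0.89, adjusted p = 0.0028). Its HC minus LC call (adjusted p = 0.0438) was lost without HC1, HC3, MC1, MC3, LC2 or LC3 (0.0524 to 0.145). SDC4, a heparan sulphate coreceptor, fell to 44.4 FPKM in MC, against 71.4 FPKM in LC (log2 change -0.68, adjusted p = 0.00206), and the adaptor GAB1 to 5.35 FPKM in MC, against 7.77 FPKM in LC (log2 change -0.46, adjusted p = 0.0107; with LC3 alone, 0.188). ETV5 (log2 change -0.54, adjusted p = 0.0157; without HC2 or MC1, 0.0637 and 0.0548) and SDC4 (log2 change 0.42, adjusted p = 0.0344; lost without any one of HC1, HC2, HC3, MC2 and MC3, 0.0641 to 0.142) also passed in HC minus MC.

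Of the HGF list 12 of 16 genes were tested. Of these, in HC minus LC 1 was higher and 2 lower in HC (median -0.16), in MC minus LC 0 were higher and 4 lower in MC (median -0.21), and in HC minus MC 1 was higher and 1 lower in HC (median 0.02). HGF, the ligand of MET, was listed at 0.05 to 0.16 FPKM in HC, 0.05 to 0.25 FPKM in MC and 0.18 to 0.57 FPKM in LC and was not tested. PLAU, urokinase, which can activate HGF, had the split of MET, with 1.13 ± 0.298 FPKM in HC, 2.04 ± 0.604 FPKM in MC and 6.19 ± 0.813 FPKM in LC (HC minus LC, log2 change -1.76 ± 0.17, adjusted p = 3.70e-05; MC minus LC, log2 change -1.26 ± 0.17, adjusted p = 2.38e-04). Its HC minus MC call (adjusted p = 0.0498) was lost in 14 of 20 alternatives, without HC2, HC3, MC1, MC2, LC2 or LC3 among them (0.0584 to 0.191). The MET relative MST1R averaged 24.1 ± 3.64 FPKM in MC and 39.3 ± 5.18 FPKM in LC (log2 change -0.68, adjusted p = 0.00629), and the plexins PLXNB1 (log2 change -0.76, adjusted p = 0.00365) and PLXNB2 (log2 change -0.59, adjusted p = 0.0121; without MC1 or MC2, 0.0599 and 0.0515) were also lower in MC. Calls that did not hold without 1 library were those of PLXNB1 in HC minus LC (log2 change -0.53; without HC1, HC3, LC2 or LC3, adjusted p = 0.0748 to 0.0959), MST1 in HC minus LC (0.39; without MC2 or any HC or LC library, 0.0513 to 0.112) and MST1R in HC minus MC (0.52; without HC2, HC3, MC1 or MC2, 0.0733 to 0.131). MST1 and PLXNB1 share their loci with other genes, so their values are uncertain.

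In the TGF-beta list 25 of 30 genes were tested. Counted in HC minus LC, 1 was higher and 9 lower in HC (median -0.33), in MC minus LC 1 was higher and 8 lower in MC (median -0.35), and in HC minus MC 4 were higher and 3 lower in HC (median -0.12). TGFBI, a matrix protein named for its induction by TGF-beta, averaged 18.4 ± 0.416 FPKM in HC, 11.9 ± 1.84 FPKM in MC and 45.3 ± 1.54 FPKM in LC. It passed in HC minus LC (log2 change -1.26 ± 0.12, adjusted p = 4.00e-05), in MC minus LC (-1.85 ± 0.12, adjusted p = 1.97e-06) and in HC minus MC (0.59 ± 0.12, adjusted p = 0.00576; with the smooth muscle covariate, 0.0753). LRRC32, which holds latent TGF-beta on the cell surface, averaged 2.54 ± 0.109 FPKM in HC, 3.15 ± 0.0928 FPKM in MC and 7.01 ± 0.651 FPKM in LC, and passed in both comparisons with LC (log2 change -1.17 and -0.95, adjusted p = 3.60e-05 and 9.46e-05). The type 1 receptor TGFBR1 averaged 1.66 ± 0.449 FPKM in HC and 3.72 ± 0.712 FPKM in LC (log2 change -0.83, adjusted p = 0.00313). TGFBR1 had 2.47 to 2.98 FPKM in MC, so all 3 genes were highest in LC, as TGFB1 was. ITGB8, an integrin subunit that frees latent TGF-beta, had the order of means of FGFR2, with 10.3 ± 0.927 FPKM in HC, 5.54 ± 0.325 FPKM in MC and 12.4 ± 1.03 FPKM in LC (MC minus LC, log2 change -1.04, adjusted p = 5.73e-05; HC minus MC, log2 change 0.78, adjusted p = 8.37e-04). The corepressor TGIF1 went the other way in HC, with 34.8 ± 3.65 FPKM in HC, 17.0 ± 0.950 FPKM in MC and 24.5 ± 1.89 FPKM in LC (HC minus LC, log2 change 0.48, adjusted p = 0.0131; without HC3 or LC2, 0.0688 and 0.053; HC minus MC, log2 change 0.99, adjusted p = 3.14e-04). LTBP2, a matrix protein of the latent TGF-beta binding family, was lowest in MC, with 16.0 ± 1.91 FPKM in HC, 10.1 ± 2.19 FPKM in MC and 17.6 ± 0.919 FPKM in LC (MC minus LC, adjusted p = 0.00227; HC minus MC, adjusted p = 0.0108, and 0.051 and 0.0529 without MC1 or MC2, and 0.201 with the smooth muscle covariate).

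**Figure D5:**
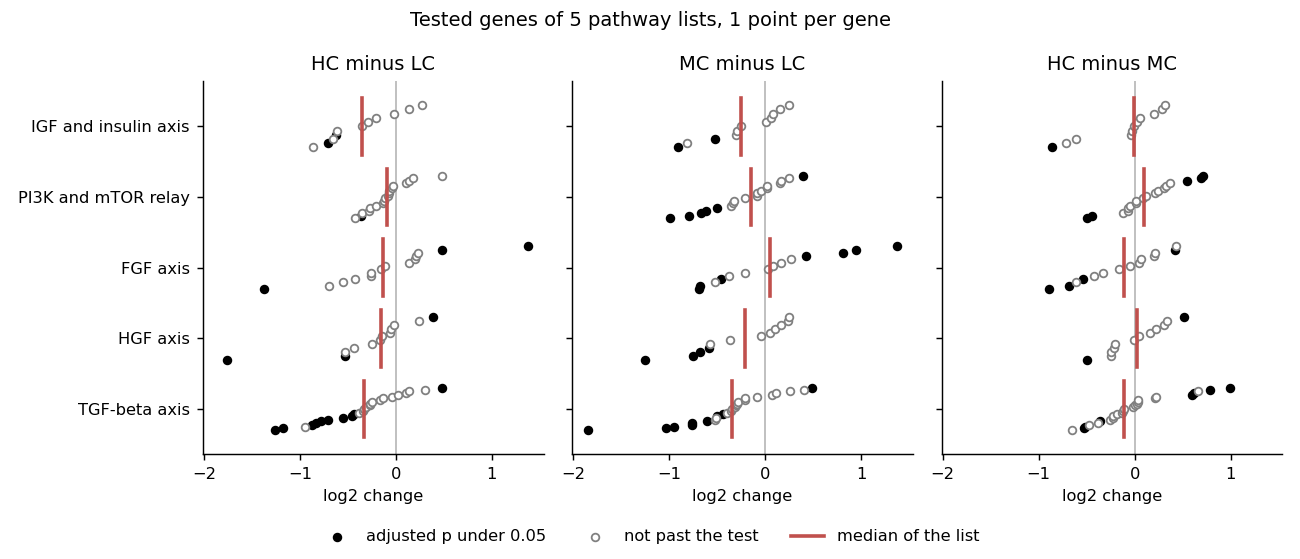
Log2 change of each tested gene of 5 pathway lists in the 3 comparisons (filled, adjusted p under 0.05; open, not past the test), with the median of each list in red. Most filled points of the TGF-beta list lie left of 0 in both comparisons with LC, and the FGF list holds filled points on both sides.

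Over the 9 libraries, the 3 genes with the pattern most like that of IGFBP5 on log2(FPKM + 1), by Pearson's r, were RASIP1 (0.986), TMEM143 (0.986) and NPEPL1 (0.983). NPEPL1 averaged 53.6 FPKM in HC, 30.5 FPKM in MC and 43.2 FPKM in LC. Most like IGFBP3 were FAM109B (0.988), PKN3 (0.98) and ENPP2 (0.98), of which PKN3 and ENPP2 share their loci with other genes. ENPP2, the enzyme that makes lysophosphatidic acid, averaged 2.63 FPKM in HC, 3.10 FPKM in MC and 6.20 FPKM in LC. These values describe likeness among 11668 genes over libraries that share their diets and are given with no test.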

How the data were processed

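RNA sequencing of goat rumen epithelium gave 9 libraries. The authors deposited 1 FPKM value per gene and library, for which the submitters' processing notes name Bowtie 1.2.0 and Cufflinks 2.2.1. Cufflinks output and the values fit FPKM. The sources used here give no genome build, annotation or strand. File starts count from 0, as the mitochondrial genes showed against RefSeq (assembly ARS1.2, used for names and chromosomes only), and 1 was added. Repeated genes were summed, lines with date-like names (0 to 21 per file) were left out, and of 11879 genes past the filter 211 not listed in every library were left out. HC libraries held 0 date-like names and 11468 to 12038 empty lines. MC and LC libraries held 18 to 21 date-like names and 0 empty lines. This difference in format cannot be told apart from the HC diet, and its bearing on the values was not tested. Values as deposited were fitted as log2(FPKM + 1) with limma 3.58.1 in R 4.3.3 (statmod 1.5.0), a mean for each diet and moderated variances with trend and robust options (6 residual and a median of 5.77 prior degrees of freedom), two-sided. The fit was tested on simulated data. Named list genes are up to 4 per list and comparison past the test, by adjusted p. Genes, lists and tests were chosen with earlier results of these data known. Tables and figures used Python 3.11.15, pandas 2.3.3, numpy 2.4.6 and matplotlib 3.10.9. Alternatives changed the pseudocount, filter, scaling, moderation, libraries and covariates.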

Additional observations from a re-analysis of the deposited data

How the results depend on the processing

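Of 18 calls on the 9 genes, 11 were made in all 20 alternatives of their comparison and 7 were lost in at least 1; of 46 named list calls, 24 were made in all and 22 lost in at least 1, and no call changed direction. With LC3 alone for LC, the count of genes called was 1379 against 2939 in HC minus LC and 2322 against 3894 in MC minus LC, and 3 of the 9 genes were called in HC minus LC against 7. That fit has fewer samples. With the smooth muscle covariate 1076 genes were called in HC minus MC, against 2917. The muscle sums of HC and MC do not overlap, so this covariate cannot be fully told apart from that comparison. TGFBI kept its HC minus MC change (0.60 with it, 0.59 without) while its SE was 0.20 against 0.12. The change of FGFR1 went from -0.68 to -0.22. The cause of the lower count was not tested. Leaving out 1 library gave 1769 (without HC3) to 2811 genes in HC minus LC, 1619 (without HC3) to 4066 in HC minus MC, 2838 to 4043 in MC minus LC and 3988 to 5901 in the test over diets, and 5 to 7, 4 to 5, 6 to 7 and 6 to 9 of the 9 genes. In HC minus MC the count was also 1801 without HC2, 1676 without MC1 and 1703 without MC2. Directions turned only for changes that were not called. In HC minus MC, INSR gave 0.040 after median-of-ratios scaling, 0.075 after quantile normalization, and ranged from -0.12 to 0.018 without 1 library (positive without MC3); TGFB1 gave 0.059, 0.097, -0.095 to 0.051 without 1 library (positive without HC3) and 0.13 with the smooth muscle covariate; MET gave 0.053 after quantile normalization; and IGFBP3 gave 0.53 with the smooth muscle covariate. In MC minus LC, IGFBP2 gave -0.018 with LC3 alone. Scaling moved the split of all calls: median-of-ratios gave 1494 higher and 1329 lower in HC minus LC, against 909 and 2030, and 1513 and 1319 in HC minus MC, against 933 and 1984. FPKM rescaled to equal totals gave 538 and 2768 in HC minus MC. Scaling also lost calls of list genes beside those given above. In HC minus LC they include PLXNB1 after median-of-ratios scaling (adjusted p = 0.0612) and, with equal totals, ETV4 (0.127), MST1 (0.243) and TGIF1 (0.116). In HC minus MC they include ETV5 after quantile scaling (0.0758) and, with equal totals, MST1R (0.0677) and SDC4 (0.164). The median log2 change of all genes in HC minus LC was 0.0046 after median-of-ratios scaling and -0.22 after rescaling to equal totals, and in HC minus MC -0.0037 and -0.25. The replicate block called 8, 8 and 5 of the 9 genes in HC minus LC, MC minus LC and HC minus MC; its added calls were IGFBP5 in HC minus LC (adjusted p = 0.0220), IGFBP3 in MC minus LC (0.0027) and IGF1R in HC minus MC (0.0285). Over all genes the block called 3751, 4613 and 3871 in these comparisons, against 2939, 3894 and 2917. Same-numbered libraries deviated together unevenly (correlation -0.076 to 0.50), and in each comparison 2 of 3 libraries correlated best with their own number. A shared effect of the replicate number is thus not excluded. The labels name no batch or pairing, so the main fit has none. Depth is unknown, which limits MET and other genes near 1 FPKM most.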
